A study of Arabidopsis thaliana with 8 samples.

Results

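The major light-harvesting proteins of photosystem II are encoded in Arabidopsis thaliana by 9 nuclear genes of 3 types: LHCB1.1 to LHCB1.5, LHCB2.1 to LHCB2.3 and LHCB3. The 9 genes were taken by their locus identifiers from the 27655 rows of the expression table, and all 9 passed the filter on low values. RNA-seq libraries were made from seedlings of the Col-0 wild type and of prp43a, a line with a T-DNA insertion in a gene for a homolog of the yeast splicing helicase Prp43. Seedlings were 7 days old and had been raised at 22 °C in long days (light for 16 h, dark for 8 h) on sucrose medium. The heat groups were then kept at 38 °C for 16 h, and the control groups were not treated. Each of the 4 groups (wild-type control, wild-type heat, prp43a control and prp43a heat) had 2 libraries, given as separate biological replicates. The prp43a group is 1 insertion allele. Whole seedlings were used, so a lower transcript level from fewer cells of a type and one from less RNA per cell cannot be told apart.

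Light-harvesting complex II is the most abundant membrane protein assembly of the chloroplast. Its proteins bind chlorophyll a, chlorophyll b and carotenoids, pass excitation energy to the photosystem II core, and assemble into trimers. LHCB1 proteins make up most of these trimers. LHCB2 proteins sit beside LHCB1 in many of them and are the form whose phosphorylation by the kinase STN7 moves antenna towards photosystem I in state transitions. LHCB3, which lacks the phosphorylated site near the amino terminus, occurs only in trimers with other LHCB proteins. LHCB transcription is known to depend on light, on GLK transcription factors and on the circadian clock.

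The libraries were compared before the members were read. Their depth, recovered from the table as described under the processing, was 4071034 to 4783628 reads per library. Over the 19697 genes tested, pairs of libraries from the same temperature correlated at r = 0.976 to 0.985 and pairs from different temperatures at r = 0.743 to 0.767. Wild-type control replicate 2 correlated as closely with the prp43a controls (r = 0.984 and 0.983) as with wild-type control replicate 1 (r = 0.983), which itself stood further from the prp43a controls (r = 0.978 and 0.976). Results between genotypes at control temperature are therefore also given without wild-type control replicate 1. The Prp43 homolog AT3G62310 had 26.7 and 29.8 TPM (a length-normalized share of a library's transcripts) in the wild-type controls and 1.68 and 1.44 TPM in the prp43a controls. After heat it had 64.6 and 72.4 TPM in wild type and 10.3 and 8.24 TPM in prp43a. Its log2 difference was -3.52 (SE 0.16, limma adjusted p = 2.31e-05) in the controls and -2.76 (SE 0.16, limma adjusted p = 0.000234) after heat. It was among the 14 genes called between genotypes at control temperature and was the 1 gene called after heat. The other homolog, AT2G47250, had 34.7 and 32.1 TPM in the wild-type controls and 49.8 and 54.1 TPM in the prp43a controls, a log2 difference of 0.62 that was not called (limma adjusted p = 0.0774). The labels do not say which of these loci is PRP43a.

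The genes lie in 3 clusters and on 2 further sites of the TAIR10.1 assembly, the RefSeq annotation of which was matched by locus for all 9. LHCB1.2 (AT1G29910, named CAB3 in the annotation), LHCB1.1 (AT1G29920, CAB2) and LHCB1.3 (AT1G29930, CAB1) follow each other on chromosome 1, at 10472280 to 10473502 (minus strand), 10474656 to 10475969 (minus strand) and 10477885 to 10479114 (plus strand). LHCB1.5 (AT2G34420) and LHCB1.4 (AT2G34430) are divergent neighbours on chromosome 2, at 14522524 to 14523568 (minus strand) and 14524607 to 14525918 (plus strand). LHCB2.2 (AT2G05070) and LHCB2.1 (AT2G05100) lie on the same chromosome at 1799234 to 1800472 and 1822990 to 1824480, both on the minus strand. LHCB2.3 (AT3G27690) is alone on chromosome 3 at 10255906 to 10257489 (plus strand), and LHCB3 (AT5G54270) on chromosome 5 at 22038165 to 22039568 (plus strand). The LHCB1 genes have no annotated intron, and their coding sequences were 86.8% to 96.4% identical to each other. Coding identity within LHCB2 was 84.4% to 96.6%, with LHCB2.1 and LHCB2.2 the closest pair. LHCB3 shared 64.5% to 67.8% of its coding bases with the other members.

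The 250 bases before the annotated start are shown for the member that lost most transcript after heat (LHCB2.3), its paralog LHCB2.2, and the LHCB1 genes that lost most (LHCB1.1) and least (LHCB1.5). They are written 5′ to 3′ on the strand of the gene, from RefSeq's TAIR10.1 sequence. Capitals mark the exact letters of 4 motifs known from light, clock and GLK studies of plant promoters, searched on both strands: AAAATCT (a binding site of the clock factor CCA1), GATAAG (I-box), CACGTG (G-box) and CCAATC (GLK motif).
LHCB2.3, chr3:10255656-10255905, plus strand: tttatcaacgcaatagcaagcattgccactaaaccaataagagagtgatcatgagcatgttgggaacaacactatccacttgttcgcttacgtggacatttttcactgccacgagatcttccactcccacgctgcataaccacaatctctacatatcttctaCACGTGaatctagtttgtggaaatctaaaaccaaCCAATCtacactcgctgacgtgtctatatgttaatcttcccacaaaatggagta
LHCB2.2, chr2:1800473-1800722, minus strand: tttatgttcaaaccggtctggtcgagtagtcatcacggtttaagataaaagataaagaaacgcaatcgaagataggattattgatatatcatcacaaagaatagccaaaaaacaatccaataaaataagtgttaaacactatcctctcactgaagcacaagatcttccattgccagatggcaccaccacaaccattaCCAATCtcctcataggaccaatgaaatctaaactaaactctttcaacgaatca
LHCB1.1, chr1:10475970-10476219, minus strand: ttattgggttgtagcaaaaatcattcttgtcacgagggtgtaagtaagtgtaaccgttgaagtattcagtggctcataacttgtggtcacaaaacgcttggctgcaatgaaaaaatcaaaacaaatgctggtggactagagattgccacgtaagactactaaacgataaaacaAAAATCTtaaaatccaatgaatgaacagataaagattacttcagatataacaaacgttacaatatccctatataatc
LHCB1.5, chr2:14523569-14523818, minus strand: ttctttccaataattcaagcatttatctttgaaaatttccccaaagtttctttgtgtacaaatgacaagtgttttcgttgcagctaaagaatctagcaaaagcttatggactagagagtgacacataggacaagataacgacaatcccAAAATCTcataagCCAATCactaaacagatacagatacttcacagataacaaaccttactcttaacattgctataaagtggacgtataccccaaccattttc
The G-box of LHCB2.3, from 88 to 83 bases before the start, was the only G-box in the 9 windows, and 6.49% of the 27443 windows of all genes held one. A GLK motif was found in 5 of the 9 windows (LHCB1.3, LHCB1.5 and all 3 LHCB2 genes) and in 10.2% of all windows. The CCA1 site occurred in LHCB1.1, LHCB1.4 and LHCB1.5 and in 16.5% of all windows, and the I-box in LHCB2.1 and in 12.3%. Neither the evening element AAAATATCT (2.36% of all windows) nor the heat shock element core GAANNTTC (9.55%) was found in any of the 9. No marked site overlapped another. The part of these motifs in the heat responses described next was not tested.

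All 9 genes fell after heat in wild type and in prp43a. By the ratio of mean TPM in wild type, the level was from 4.0-fold lower for LHCB1.5 to 1639-fold lower for LHCB2.3. For LHCB2.3 the fold of the fit on log2(TPM + 1) was 952. Together they made up 6.41% of all TPM in the wild-type controls (6.60% and 6.22%) and 0.723% after heat (0.676% and 0.769%). The LHCB2 genes fell most and the LHCB1 genes other than LHCB1.1 least, with LHCB3 between them. In the limma test over all genes (adjusted p below 0.05), 27.6% of 19697 genes were called lower after heat in wild type and 27.0% in prp43a, and 42.4% and 43.1% higher. Higher genes were 60.5% and 61.5% of calls as deposited and 49.6% and 49.2% with median-of-ratios scaling. The libraries of the 2 temperatures did not overlap for any of the 9 genes in either genotype, a pattern that 33.6% of all genes showed in the lower direction in wild type and 33.9% in prp43a. The median log2 fold change of the 9 was -3.92 in wild type and -3.85 in prp43a, where the median of all genes was 0.25 and 0.28. Fold changes from the test are on the log2(TPM + 1) scale throughout.

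**Figure D1:**
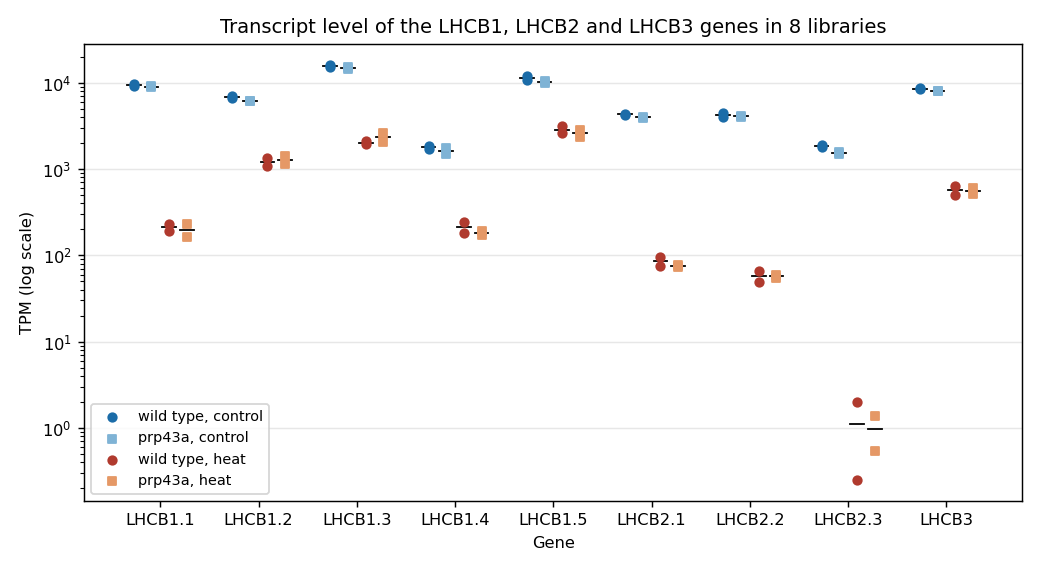
TPM (log scale) of each of the 9 genes in each of the 8 libraries, with circles for wild type, squares for prp43a and short lines for group means (n = 2 libraries). Every heat library lies below every control library of the same gene, and LHCB2.3 lies lowest after heat, between 0.249 and 2.00 TPM.

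In the wild-type controls LHCB2.3, an LHCB2 gene, had 1892 and 1795 TPM, and it had 0.249 and 2.00 TPM after heat. In prp43a it had 1559 and 1489 TPM in the controls and 1.38 and 0.543 TPM after heat. It thus went from a highly expressed gene, ranked 56 and 60 among all genes in the wild-type control libraries, to rank 19935 and 16751 after heat. The reads behind these values were 7719 and 7506 in the wild-type controls against 1 and 8 after heat, and 6802 and 6077 in the prp43a controls against 5 and 2 after heat. The ratio of the mean control TPM to the mean heat TPM was 1639 in wild type and 1582 in prp43a. From the summed heat reads, its 95% exact Poisson interval was 863 to 3584 in wild type (9 reads) and 768 to 3935 in prp43a (7 reads). These intervals cover counting error only, and the ratios also rest on single heat libraries. Without wild-type heat replicate 1 the ratio was 922 and without replicate 2 it was 7394, with fitted log2 fold changes of -9.26 and -10.53. In prp43a the ratio was 2804 without heat replicate 1 and 1102 without heat replicate 2. LHCB2.3 had the lowest log2 fold change of all 19697 genes in both genotypes, -9.90 in wild type (SE 0.33, limma adjusted p = 6.74e-09) and -9.63 in prp43a (SE 0.33, limma adjusted p = 7.84e-09). As folds these are 952 and 795, below the ratios of mean TPM. The size of these fitted values depends on the pseudocount, as the level after heat is near 1 TPM. The rank depends on the control level too, since no gene can fall below 0 TPM. AT5G44568, for example, had a mean of 25.5 TPM in the wild-type controls and 0 TPM after heat, and could not reach such a value.

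LHCB2.1 had 4385 and 4205 TPM in the wild-type controls, 75.8 and 95.9 TPM after heat, 3949 and 4019 TPM in the prp43a controls and 72.9 and 76.4 TPM after heat there. LHCB2.2 stood at 4483 and 3993 TPM, 48.9 and 66.6 TPM, 4029 and 4136 TPM, and 55.3 and 59.6 TPM in the same groups. Their control levels were alike in wild type, where the libraries overlapped, and both were lower in every heat library than in any control library. The log2 fold change of LHCB2.1 was -5.64 (SE 0.10, limma adjusted p = 3.05e-10) in wild type and -5.72 (SE 0.10, limma adjusted p = 3.2e-10) in prp43a. That of LHCB2.2 was -6.19 (SE 0.13, limma adjusted p = 5.42e-10) and -6.13 (SE 0.13, limma adjusted p = 6.3e-10). LHCB2.2 therefore lost more than LHCB2.1, with a difference of -0.55 on the log2 scale in wild type (SE 0.05, from the spread of the difference between replicates). These neighbours share 204 windows of 75 bases, the read length, which are 15.3% of the windows of LHCB2.1 and 19.1% of those of LHCB2.2. How reads from the shared windows were assigned is not given in the sources used here, and the values of this pair are uncertain to that extent. LHCB2.3 shares no such window with any gene.

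LHCB1.1 had the largest fall of the LHCB1 genes, close to that of LHCB2.1 and smaller than those of LHCB2.2 and LHCB2.3. Its level was 9588 and 9284 TPM in the wild-type controls, 191 and 232 TPM after heat, 8832 and 9115 TPM in the prp43a controls and 162 and 234 TPM after heat there. The log2 fold change was -5.48 in wild type (SE 0.15, limma adjusted p = 2.41e-09) and -5.52 in prp43a (SE 0.15, limma adjusted p = 2.36e-09), with 2.24% and 2.2% of the control TPM left. LHCB1.1 and LHCB2.1 are neighbours in the order of the heat responses. Their difference in wild type, -0.16, was smaller than its SE of 0.17, though the ratios of the 2 genes in control and heat libraries did not overlap. In prp43a it was -0.20 (SE 0.17), with overlapping ratios. The values of LHCB1.1 also carry the uncertainty of windows shared with LHCB1.2 and LHCB1.3, given below.

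LHCB1.3, the member with the highest control level, had 16176 and 15128 TPM in the wild-type controls and 2102 and 1954 TPM after heat. Its prp43a libraries were at 14297 and 15052 TPM in the controls and 2034 and 2623 TPM after heat. It ranked second among all genes in all 4 control libraries and between 22 and 36 in the heat libraries. Its log2 fold change was -2.95 in wild type (SE 0.12, limma adjusted p = 2.59e-08) and -2.67 in prp43a (SE 0.12, limma adjusted p = 4.94e-08). LHCB1.3 and LHCB1.1 start within a few kilobases of each other on opposite strands, and 13.0% of the control TPM of LHCB1.3 was left after heat in wild type where 2.24% was left for LHCB1.1.

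LHCB1.5 kept the largest part of its control level. Its values were 12097 and 10744 TPM in the wild-type controls, 2590 and 3116 TPM after heat, 9837 and 10497 TPM in the prp43a controls and 2381 and 2869 TPM after heat there. The part left was 25% in wild type and 25.8% in prp43a, with log2 fold changes of -2.0 (SE 0.13, limma adjusted p = 3.99e-07) and -1.96 (SE 0.13, limma adjusted p = 4.84e-07). In the wild-type heat libraries LHCB1.5 was the highest of the 9, and in the prp43a heat libraries its values overlapped those of LHCB1.3.

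LHCB1.2, on the other side of LHCB1.1, had 7025 and 6676 TPM in the wild-type controls, 1073 and 1344 TPM after heat, 6088 and 6094 TPM in the prp43a controls and 1155 and 1400 TPM after heat there. LHCB1.4, the lowest of the LHCB1 genes, stood at 1875 and 1718 TPM, 181 and 241 TPM, 1495 and 1752 TPM, and 191 and 172 TPM in the same groups. Both genes were lower in every heat library than in any control library. LHCB1.2 had log2 fold changes of -2.51 (SE 0.12, limma adjusted p = 7.49e-08) in wild type and -2.26 (SE 0.12, limma adjusted p = 1.53e-07) in prp43a. LHCB1.4 had -3.10 (SE 0.13, limma adjusted p = 3.08e-08) and -3.15 (SE 0.13, limma adjusted p = 2.83e-08), a response that did not differ from that of LHCB1.3 beyond the spread in wild type (difference -0.15, SE 0.26). In prp43a the difference was -0.48 (SE 0.26), and the ratios of the 2 genes in control and heat libraries did not overlap. Of the windows of 75 bases, 3.66% to 10.4% were shared between LHCB1 genes. LHCB1.1 shared 129 of 1240, with LHCB1.2 and LHCB1.3, and no gene outside the 9 held a window of any member. LHCB1.5 shared 9.27% of its windows with LHCB1.4, and LHCB1.3 shared 7.53% of its windows with LHCB1.1. In wild-type heat replicate 1 these pairs had 7412 against 652 reads and 7081 against 687 reads. Assignment of reads from these windows is not given in the sources used here either. The heat levels and fold changes of LHCB1.4 and LHCB1.1, beside higher paralogs, are uncertain to that extent.

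LHCB3 had 8513 and 8642 TPM in the wild-type controls and 499 and 643 TPM after heat, and 8049 and 8032 TPM and then 513 and 602 TPM in prp43a. All heat libraries were below all control libraries. Its log2 fold change was -3.92 in wild type (SE 0.12, limma adjusted p = 4.6e-09) and -3.85 in prp43a (SE 0.12, limma adjusted p = 5.27e-09). LHCB3 shared no window of 75 bases with another gene. Its response lay between those of LHCB1.4 and LHCB1.1 in both genotypes. Apart from LHCB2.3, the members had 153 to 8891 reads in the heat libraries, and all 9 had 5842 to 55417 in the controls.

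The order of the heat responses, from least to most lowered, was LHCB1.5, LHCB1.2, LHCB1.3, LHCB1.4, LHCB3, LHCB1.1, LHCB2.1, LHCB2.2 and LHCB2.3 in wild type and in prp43a. The order of the levels in the wild-type controls was another one: LHCB1.3, LHCB1.5, LHCB1.1, LHCB3, LHCB1.2, LHCB2.1, LHCB2.2, LHCB2.3 and LHCB1.4. There the libraries of the last 2 overlapped, as did those of LHCB2.1 and LHCB2.2. After heat the wild-type order was LHCB1.5, LHCB1.3, LHCB1.2, LHCB3, LHCB1.1, LHCB1.4, LHCB2.1, LHCB2.2 and LHCB2.3, and only the libraries of LHCB1.1 and LHCB1.4 overlapped between neighbours. The prp43a libraries had the same order after heat. In the prp43a controls LHCB1.4 and LHCB2.3 changed places with overlapping libraries, and so did LHCB2.2 and LHCB2.1, whose libraries did not overlap there.

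**Figure D2:**
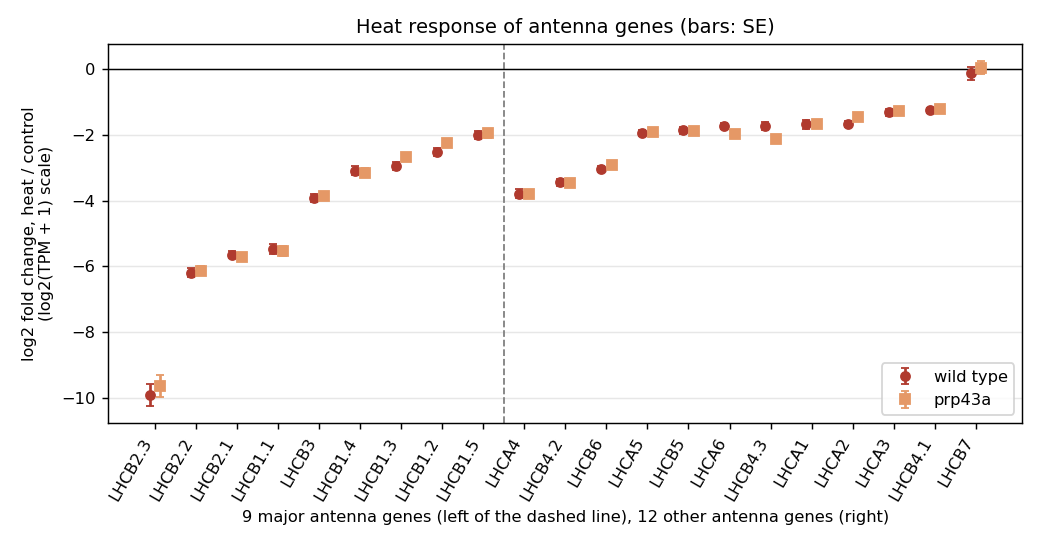
Log2 fold change of heat against control on the log2(TPM + 1) scale (points, with bars for the SE of the fit over 8 libraries) for the 9 major antenna genes on the left and 12 other antenna genes on the right, in wild type (circles) and prp43a (squares). The 9 genes run from -9.90 to -2.0 in wild type, the others from -3.78 to -0.14.

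The make-up of the remaining transcript pool was described from ratios within each library, which do not move when all values of a library are multiplied by 1 factor (quantile normalization is not such a scaling). LHCB1 genes held 70.4% of the summed TPM of the 9 genes in the wild-type controls and 90.1% after heat, and 70.2% and 90.5% in prp43a. LHCB2 genes went from 16.2% to 1.99% in wild type and from 16.2% to 1.84% in prp43a, and LHCB3 from 13.4% to 7.87% and from 13.6% to 7.65%. Summed LHCB2 therefore kept 1.39% of its control TPM in wild type where summed LHCB1 kept 14.4% and LHCB3 6.66%. The ratio of LHCB2 to LHCB1 was 0.230 and 0.229 in the wild-type controls, 0.0204 and 0.0239 after heat, 0.235 and 0.227 in the prp43a controls and 0.0219 and 0.0187 after heat there. The ratio of LHCB3 to LHCB1 was 0.182 and 0.198, 0.0813 and 0.0934, 0.198 and 0.189, and 0.0866 and 0.0825 in the same groups. Control and heat libraries did not overlap in either ratio, and the genotypes overlapped at control temperature and after heat in both. Within LHCB2, the share of LHCB2.3 as a fraction was 0.176 and 0.18 in the wild-type controls and 0.00199 and 0.0122 after heat, the latter from 1 and 8 reads. In prp43a it was 0.163 and 0.154 in the controls, both below the wild-type controls, and 0.0107 and 0.00398 after heat, where the genotypes overlapped.

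Within LHCB1 the pool also shifted from LHCB1.1 to LHCB1.5. LHCB1.1 made up 14.7% of the 9-gene pool in the wild-type controls and 2.92% after heat, and LHCB1.5 17.8% and 39.4%. In prp43a the share of LHCB1.5 went from 17.2% to 36.0% and that of LHCB1.1 from 15.2% to 2.69%. LHCB1.3 moved less, from 24.4% to 28.2% in wild type and from 24.8% to 31.8% in prp43a.

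**Figure D3:**
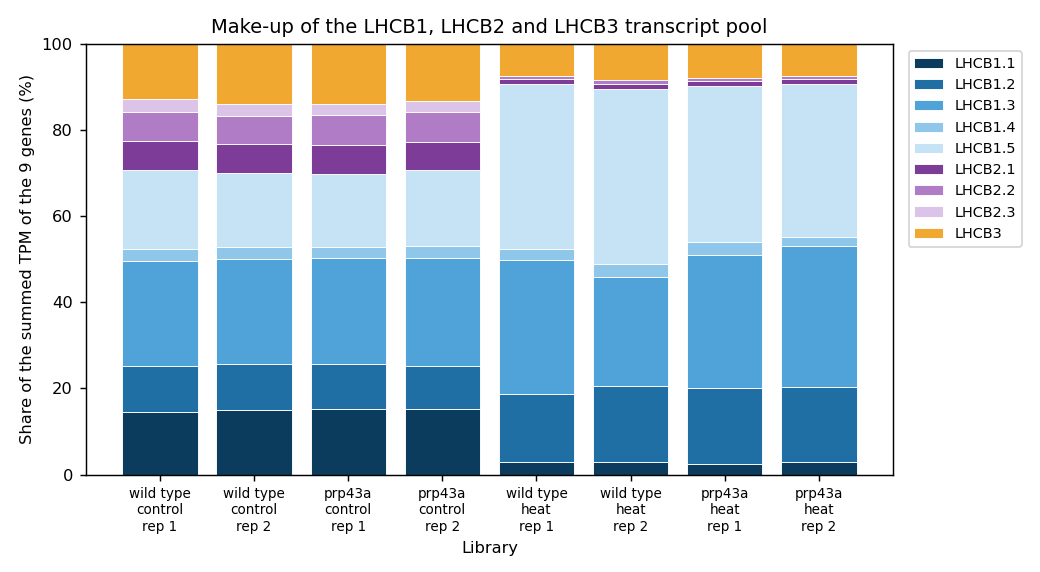
Share of the summed TPM of the 9 genes (percent) held by each gene in each of the 8 libraries, stacked in blue for LHCB1, purple for LHCB2 and orange for LHCB3. In the 4 heat libraries the LHCB2 segments shrink from about the height of LHCB3 or more to a thin band, and LHCB1.5 takes 39.4% in wild type and 36.0% in prp43a on average.

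The genes that act with these proteins did not move as one. Of the 12 minor antenna and photosystem I antenna genes, 11 fell in each genotype and none rose, with a median of -1.73 in wild type and -1.91 in prp43a. LHCA4, a photosystem I antenna protein, went from a mean of 9619 to 704 TPM in wild type, with -3.78 as log2 fold change (SE 0.12, limma adjusted p = 5.63e-09). LHCB4.2 and LHCB6, which join the trimers to the photosystem II core, had -3.44 (limma adjusted p = 4.6e-09) and -3.04 (limma adjusted p = 2e-09), and Lhca5 had -1.94 (limma adjusted p = 5.29e-08). In prp43a the 4 largest falls were LHCA4 (-3.81), LHCB4.2 (-3.47), LHCB6 (-2.91) and LHCB4.3 (-2.12). LHCB7 (AT1G76570) was the 1 gene of the list that was not called, at -0.14 in wild type (limma adjusted p = 0.554) and 0.04 in prp43a (limma adjusted p = 0.871).

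Of 5 genes for the import and insertion of light-harvesting proteins into the thylakoid, 3 fell and 1 rose in each genotype. AT2G47450, which the annotation calls CAO and which encodes the cpSRP43 subunit of the chloroplast signal recognition particle, had a log2 fold change of -1.26 in wild type (limma adjusted p = 4.83e-07) and -1.44 in prp43a. CPFTSY, the receptor of that particle, had -0.69 (limma adjusted p = 0.000217) and GDC1, which hands light-harvesting proteins to it, -0.31 (limma adjusted p = 0.0147). CPSRP54, its other subunit, had 0.43 (limma adjusted p = 0.000881), a call lost under both other scalings (limma adjusted p = 0.128 with median-of-ratios scaling and 0.192 with quantile normalization, and 0.458 and 0.238 in prp43a). That of GDC1 was lost without the trend and without wild-type control replicate 2 or wild-type heat replicate 1 (limma adjusted p = 0.0707, 0.0837 and 0.0915), and in prp43a without prp43a heat replicate 1 (limma adjusted p = 0.0561). The insertase ALB3 was not called, at -0.14 in wild type.

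Of 6 genes of state transitions, antenna phosphorylation and quenching, 3 fell and 1 rose in wild type, and 2 fell and 2 rose in prp43a. STN7, the kinase that phosphorylates LHCB1 and LHCB2, went from 166 to 44.2 TPM in wild type, which is -1.90 as log2 fold change (SE 0.12, limma adjusted p = 4.1e-07). NPQ4, the quenching protein PsbS, had -1.03 (limma adjusted p = 9.99e-06), and STN8, the kinase of core proteins, 0.67 (limma adjusted p = 0.00303). The phosphatase PBCP had -0.41 in wild type (limma adjusted p = 0.00832; 0.0504 without wild-type heat replicate 1). In prp43a the call for STN8 was lost under both other scalings (limma adjusted p = 0.239 and 0.156) and without prp43a control replicate 1 or prp43a heat replicate 2 (0.104 and 0.122). TAP38, the phosphatase that acts against STN7, had 0.23 in prp43a (limma adjusted p = 0.0332), which reversed under both other scalings (-0.0816 with median-of-ratios, -0.0189 with quantile normalization). Its call was also lost with no trend (limma adjusted p = 0.112), with voom (0.0592) and without any 1 of the 4 prp43a libraries (0.0674 to 0.126).

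Of 8 genes for chlorophyll b synthesis and the breakdown of antenna or chlorophyll, 4 rose and 3 fell in wild type, and 5 rose and 3 fell in prp43a. CH1, chlorophyllide a oxygenase, which makes chlorophyll b, went from 305 to 43.6 TPM in wild type, which is -2.79 as log2 fold change (SE 0.11, limma adjusted p = 1.79e-08). HCAR, which turns chlorophyll b derivatives back towards chlorophyll a, had 1.80 (limma adjusted p = 3.66e-05), and PPH, a pheophytinase of chlorophyll breakdown, 1.42 (limma adjusted p = 1.16e-05). NOL, a chlorophyll b reductase, had -1.48 (limma adjusted p = 5.38e-05). The same 4 genes led the list in prp43a, with CH1 at -2.77, HCAR at 1.83, PPH at 1.70 and NOL at -1.3.

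Of 7 known regulators of LHCB transcription, 5 fell and 2 rose in wild type, and 3 fell and 2 rose in prp43a. The morning clock genes LHY and CCA1 went from 34.4 to 1.82 TPM and from 82.7 to 13.2 TPM in wild type, and the evening clock gene TOC1 from 9.28 to 59.1 TPM. Their log2 fold changes were -3.65 for LHY (limma adjusted p = 5.63e-08), -2.56 for CCA1 (limma adjusted p = 1.93e-07) and 2.53 for TOC1 (limma adjusted p = 2.25e-07). The hour of harvest is not given in the sources used here, so that heat and time of day cannot be told apart in these genes or in the LHCB genes. GLK2, an activator of antenna genes, fell from 173 to 75.8 TPM (log2 fold change -1.18, limma adjusted p = 3.29e-06).

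Of 6 stress-related members of the light-harvesting superfamily, 5 fell and 1 rose in wild type, and 4 fell in prp43a. ELIP2, an early light-induced protein, went from 58.5 to 2.61 TPM in wild type, a log2 fold change of -4.10 (limma adjusted p = 1.81e-07). OHP and OHP2, one-helix proteins needed for the assembly of the photosystem II reaction centre, had -2.95 (limma adjusted p = 1.59e-09) and -2.34 (limma adjusted p = 2.89e-08). LIL3:1, which takes part in chlorophyll synthesis, had -0.54 (limma adjusted p = 0.000177).

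The labelled tissue was checked with markers. All 8 other green-tissue genes, which encode Rubisco subunits and further enzymes of carbon fixation, fell in both genotypes, with medians of -2.12 and -2.13. SBPASE, a Calvin cycle enzyme, had a log2 fold change of -2.84 (limma adjusted p = 1.1e-08), RCA, Rubisco activase, -2.41 (limma adjusted p = 1.76e-08), RBCS1B -2.38 (limma adjusted p = 5.38e-07) and CA1, a carbonic anhydrase, -2.24 (limma adjusted p = 1.32e-07) in wild type. Their summed level fell from 57138 to 57177 TPM in the wild-type control libraries to 24828 to 25101 TPM in the heat libraries. In prp43a it was 58631 and 55441 TPM in the controls and 21379 and 26439 TPM after heat. The 11 root markers summed to 1090 to 1127 TPM in the wild-type controls and 112 to 155 TPM after heat, and to 1166 to 1326 TPM and 117 to 122 TPM in prp43a. PYK10, a beta-glucosidase of the root and hypocotyl, made up most of this, and 7 of 9 root markers tested fell in each genotype. MRN1, too low to be tested, was at 0 in all heat libraries and in 2 of the 4 control libraries. THAS1 and SHV2 were at 0 in both wild-type heat libraries, and CASP1 and CASP2 in both prp43a heat libraries. Their control levels were low too. The control means were 1.34 TPM for THAS1 and 0.155 TPM for SHV2 in wild type, and 5.88 TPM for CASP1 and 2.05 TPM for CASP2 in prp43a. Green-tissue and root markers thus both fell, and their part in the fall of the LHCB genes was not tested.

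Between the genotypes, none of the 9 genes was called at control temperature, after heat or in the difference of the heat responses. Of all genes, 0.0711% were called at control temperature, 0.00508% after heat and 0.0102% in the difference. In the main fit, with the settings given under the processing, none of the 9 had an unadjusted limma p below 0.05 in these comparisons. This statement does not extend to the alternative fits, for which unadjusted p-values of the 9 are not given here. None of the 9 was called by limma's voom on the recovered reads. The heat and genotype comparisons use the same libraries, so their values are not independent.

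At control temperature the estimates for prp43a against wild type were below 0 for all 9 genes as deposited and for 5 of 9 with quantile normalization. They gave log2 fold changes of -0.27 (LHCB2.3) to -0.05 (LHCB2.2) as deposited, with a median of -0.11 and limma adjusted p of 0.777 to 0.968. The median of all genes was 0.01. For 7 of the 9 genes both prp43a libraries were below both wild-type libraries, as for 17.9% of all genes. LHCB1.2 showed this with 7025 and 6676 TPM in wild type and 6088 and 6094 TPM in prp43a, a log2 difference of -0.17 (SE 0.12, limma adjusted p = 0.777). The summed TPM of the 9 was 6.60% and 6.22% of all TPM in wild type and 5.81% and 6.02% in prp43a. Over the 8 genes other than LHCB2.3, the 95% intervals of the log2 fold changes ran from -0.45 to 0.27 at the widest, and with LHCB2.3 from -1.01 to 0.46. The fit takes 1 spread per gene over all 4 groups. The interval of LHCB2.3 therefore also carries the spread of its heat libraries, at 1 to 8 reads each. Its control libraries, at 1892 and 1795 TPM in wild type and 1559 and 1489 TPM in prp43a, did not overlap. Without wild-type control replicate 1 the values lay between -0.24 and 0.03, and 8 of 9 were below 0.

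After heat the log2 fold changes of prp43a against wild type were -0.21 (LHCB1.4) to 0.19 (LHCB1.3), 6 below 0 and 3 above, each with a limma adjusted p of 1. The libraries overlapped for all 9 genes, where 30.3% of all genes had libraries that did not overlap in either direction. The 95% intervals ran from -0.75 to 0.72 at the widest. LHCB2.3, the gene with the largest response, had 0.249 and 2.00 TPM in wild type and 1.38 and 0.543 TPM in prp43a, a difference that is not detectable at 1 to 8 reads per library.

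The difference of the heat responses, prp43a minus wild type, was -0.08 (LHCB2.1) to 0.28 (LHCB1.3), with a median of 0.06 and limma adjusted p of 0.863 to 0.993. The 95% intervals ran from -0.53 to 0.67 without LHCB2.3 and from -0.78 to 1.3 with it. No gene of the lists above was called in any of the 3 genotype comparisons.

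**Figure D4:**
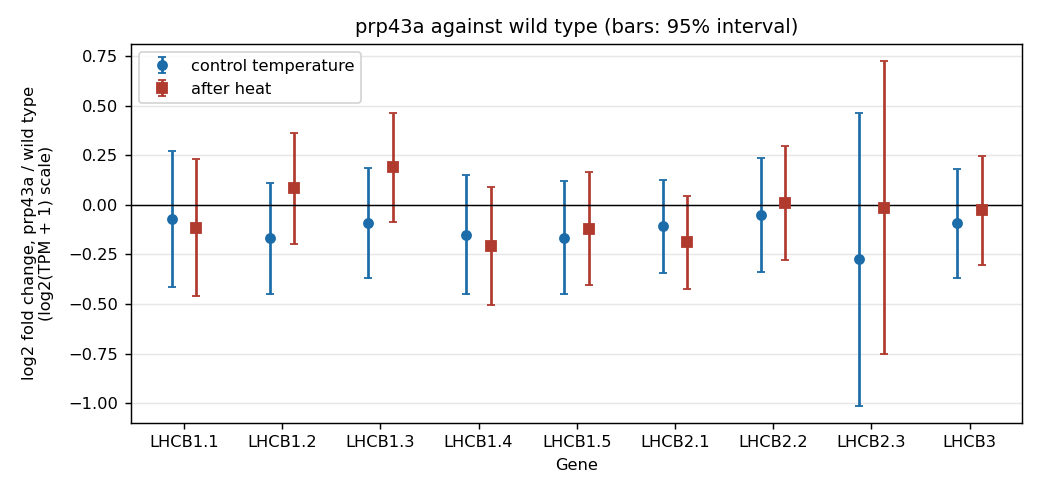
Log2 fold change of prp43a against wild type on the log2(TPM + 1) scale for each of the 9 genes, at control temperature (circles) and after heat (squares), with bars for the 95% interval of the limma fit over 8 libraries. All 18 intervals include 0, and those of LHCB2.3 are the widest.

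The genes with the most similar pattern over the 8 libraries were named by the root mean square difference between log2(TPM + 1) profiles, each centred on its own mean, among 11994 genes whose mean reached 10 TPM. Closest to the mean of the 9 members were AT1G80440 (difference 0.08), AT1G58602 (0.08), SNG1 (0.13), AT5G44568 (0.14) and ATCTH (0.15). SNG1, which makes sinapoylmalate, a phenolic ester that screens ultraviolet light in leaves, had 346 ± 17.1 TPM in the wild-type controls and 12 ± 1.75 TPM after heat (SD, n = 2). AT1G80440 had 127 ± 2.72 TPM and 4.77 ± 1.36 TPM (SD, n = 2). The 9 members were left out of both searches, so the paralogs of LHCB2.3 were not ranked. No gene outside the 9 was as close to LHCB2.3: the nearest were AT5G48490 (difference 1.62), FRO6 (1.91), ELP (2.00), AT5G16030 (2.22) and EXPA8 (2.22). FRO6, a ferric reductase of green tissue, went from 167 ± 9.90 to 0.995 ± 0.0918 TPM in wild type and from 143 ± 8.71 to 1.82 ± 0.126 TPM in prp43a (SD, n = 2). AT5G48490 had 113 ± 1.11 TPM in the wild-type controls and 0.316 ± 0.447 TPM after heat (SD, n = 2). The likeness is a description over libraries that fall into 2 temperature groups.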

How the data were processed

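Polyadenylated RNA of 8 seedling libraries was sequenced as paired 75-base reads, per the labels' protocols. The authors deposited 1 table of TPM (length-normalized transcript shares), per the file headers, on TAIR 10, per the submitters' processing notes. Aligner and counter: not given in the sources used here. TPM times exon length (TAIR10.1) gave whole reads for 99.2% of 126817 values under 200 reads (tolerance 0.05), for 27445 of 27655 rows. These units may be reads or read pairs.

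Genes with at least 1 TPM in at least 2 of 8 libraries were tested on log2(TPM + 1) with limma 3.58.1 (R 4.3.3, with trend, group means, 4 residual degrees of freedom, Benjamini-Hochberg per comparison). P-values rest on 1 spread per gene, pooled over the 4 groups of 2 libraries and moderated over all genes tested. The fit was checked on simulated data. The members and gene lists were chosen with earlier results of these data known. All 9 members are named, with up to 4 called genes of the largest change per list, LHCB7 and ALB3 (uncalled, named after their values were seen), the 5 nearest patterns, 2 helicase loci and root markers listed at 0. The planned test of the LHCB2 to LHCB1, LHCB3 to LHCB1 and LHCB2.3 ratios is not given, since the genes were chosen with results known. The alternatives were other pseudocounts, filters and scalings, no trend, a replicate block, only the compared libraries, each library left out, and voom.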

Additional observations from a re-analysis of the deposited data

How the results depend on the processing

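In 18 alternative fits all 9 genes kept their fall after heat and passed the test in both genotypes, with log2 fold changes of -11.07 to -1.37 in wild type and -10.61 to -1.3 in prp43a and limma adjusted p of at most 0.000256 and 6.53e-05. None was called between genotypes in any fit. With median-of-ratios scaling the median of all genes was -0.00 in wild type, the median of the 9 was -4.21 in wild type and -4.17 in prp43a, and higher genes were 49.6% and 49.2% of calls, against 60.5% and 61.5% as deposited. With quantile normalization these shares were 52.5% and 52.0%, and the medians of the 9 were -3.60 and -3.62. The within-library share of LHCB2.3 in LHCB2 changed by -4.89 on the log2 scale, and by -3.62 with a pseudocount of 1. No test of the ratios is given, so the permutation within genotype is not given either.

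Replicate numbers did not pair the libraries (correlations of deviations -0.03 to 0.03). With the replicate block 13748 genes were called for heat in wild type, 13746 in prp43a, 10 between genotypes at control temperature, 1 after heat and 4 in the difference of the responses. Without the block these were 13784, 13813, 14, 1 and 2. With voom on the recovered reads they were 13818, 13753, 13, 1 and 3.

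The 14 genes called at control temperature became 0 with only the compared libraries and 3 to 48 with 1 library left out (48 without wild-type control replicate 2, 3 without prp43a control replicate 2). The 1 gene after heat became 2 with no filter, 6 with no trend, 0 with only the compared libraries and 1 to 3 with 1 library left out. The 2 genes of the difference became 0 with a pseudocount of 0.1, 7 with a pseudocount of 5, 0 with no filter, 4 with the filter at 5 TPM, 0 with no trend and 0 to 0 with 1 library left out. Unadjusted p below 0.05 was reached by 1760, 899 and 1237 genes.

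Estimates between genotypes near 0 reversed under some settings. At control temperature these were LHCB1.1 (0.0357) and LHCB2.2 (0.0471) with quantile normalization, and LHCB2.2 with 1 library left out (-0.135 to 0.0321). LHCB1.3 and LHCB3 came to 0.00 with quantile normalization, which is not a reversal. After heat they were LHCB2.2 with quantile normalization (-0.0143), median-of-ratios scaling (-0.0342) and voom (-0.0017), and LHCB2.3 with a pseudocount of 0.1 (0.19) and voom (0.17). With 1 library left out after heat the ranges were -0.38 to 0.15 for LHCB1.1, -0.0797 to 0.24 for LHCB1.2, -0.25 to 0.0143 for LHCB1.5, -0.21 to 0.23 for LHCB2.2, -0.65 to 0.62 for LHCB2.3 and -0.21 to 0.15 for LHCB3. In the difference of the responses LHCB2.2 (-0.0613) and LHCB3 (-0.0261) reversed with quantile normalization. With 1 library left out the ranges were -0.31 to 0.22 for LHCB1.1, -0.26 to 0.15 for LHCB1.4, -0.0889 to 0.18 for LHCB1.5, -0.25 to 0.0858 for LHCB2.1, -0.16 to 0.28 for LHCB2.2, -0.37 to 0.89 for LHCB2.3 and -0.12 to 0.25 for LHCB3. TAP38 in prp43a became -0.0816 with median-of-ratios scaling and -0.0189 with quantile normalization. The cause of these changes was not tested. Depth limits LHCB2.3 after heat, at 1 to 8 reads per library.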
